A study of Homo sapiens with 5 samples.

Results

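Syndecans and glypicans, the 2 families of heparan sulfate proteoglycans that sit in the cell membrane, were followed by 10 genes, namely SDC1, SDC2, SDC3 and SDC4 and GPC1, GPC2, GPC3, GPC4, GPC5 and GPC6. Their entries were taken by gene symbol from a table of 37181 genes or assembled loci, with the entry of the highest mean used for each symbol. Of the 10 genes, 9 had an entry under their name and 7 reached a mean of 0.5 FPKM (fragments per kilobase of transcript, scaled to the mapped fragments of the library) and were tested. GPC3 was not analysed here, and SDC2 and GPC5 stayed under that level.

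The libraries came from HCC827, a human lung adenocarcinoma cell line whose EGFR gene carries a deletion in exon 19. HCC827/GS denotes the gefitinib-sensitive parental cells (replicates 2 and 3), and HCC827/GR denotes resistant cells raised from them by stepwise doses of gefitinib, an EGFR tyrosine kinase inhibitor, for over 6 months (replicates 1, 2 and 3). Both groups share the EGFR deletion, and the resistant cells are a single derived line, so drug selection and other differences between the lines cannot be told apart. The labels do not say whether the libraries came from separate cultures, and the p-values then measure only the spread between these libraries.

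The summed FPKM was lowest in HCC827/GS replicate 2 and highest in HCC827/GR replicate 1, and the number of reads behind a value is unknown because FPKM carries no counts. Epithelial markers were present, with a summed 1068 to 1186 FPKM in HCC827/GS and 443.1 to 573.4 FPKM in HCC827/GR for EPCAM, KRT8, KRT18, KRT19, CDH1 and NKX2-1, of which 5 of 6 were called lower (5.71% of all tested entries were). Fibroblast markers (6 of 6 genes listed) summed to 0.792 to 1.03 FPKM in HCC827/GS and 0.807 to 1.17 FPKM in HCC827/GR. Of the 5 leukocyte markers, 4 were listed and summed to 31.1 to 39.2 FPKM in HCC827/GS and 33.0 to 38.3 FPKM in HCC827/GR, nearly all of it from the entry named CD68. That entry holds 66 transcripts, and whether all of them belong to CD68 was not tested. PTPRC was at most 0.0228 FPKM. The 4 endothelial markers summed to 3.38 to 4.44 FPKM in HCC827/GS and 0.0672 to 0.108 FPKM in HCC827/GR. This came through PECAM1, whose highest entry, of 10 under that name, was listed at 0 in every HCC827/GR library. The entry used holds 1 transcript, which was assembled by the authors' pipeline and is not an annotated one. The part of these shifts in the members' results was not tested.

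Syndecans are transmembrane core proteins with a short cytoplasmic tail that binds PDZ-domain proteins, whereas glypicans are held to the outer membrane leaflet by a glycosylphosphatidylinositol anchor. Both carry heparan sulfate, a sulfated sugar chain that binds growth factors, morphogens, chemokines and matrix proteins and presents them to their receptors. In epithelia SDC1 and SDC4 are the usual syndecans, SDC2 is best known from mesenchymal cells and SDC3 from neural tissue. Glypicans are known for modulating Wnt, Hedgehog, FGF and BMP signalling.

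The bases before the transcription start are shown for 3 members that frame the result, since GPC4 was the one called higher, GPC6 had the lowest fold change and SDC4 was the most abundant. Sequences are from RefSeq (GRCh38.p14), read 5′ to 3′ on the gene's strand, and capitals mark matches on either strand to GGGCGG, the core of the GC box bound by SP1-type factors, or to the TATA box motif, spelled TATAAA.
GPC4, chrX:133415490-133415739, minus strand: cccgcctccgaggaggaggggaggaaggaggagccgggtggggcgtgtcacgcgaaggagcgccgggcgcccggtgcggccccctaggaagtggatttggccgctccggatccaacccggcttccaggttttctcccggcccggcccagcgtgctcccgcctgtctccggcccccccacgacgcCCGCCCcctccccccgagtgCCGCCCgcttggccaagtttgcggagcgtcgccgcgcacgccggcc
GPC6, chr13:93226557-93226806, plus strand: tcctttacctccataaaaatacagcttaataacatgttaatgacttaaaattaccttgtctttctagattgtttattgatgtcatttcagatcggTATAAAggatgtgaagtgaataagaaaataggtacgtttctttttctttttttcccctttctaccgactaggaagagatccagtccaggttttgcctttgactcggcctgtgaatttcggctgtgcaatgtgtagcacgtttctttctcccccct
SDC4, chr20:45348425-45348674, minus strand: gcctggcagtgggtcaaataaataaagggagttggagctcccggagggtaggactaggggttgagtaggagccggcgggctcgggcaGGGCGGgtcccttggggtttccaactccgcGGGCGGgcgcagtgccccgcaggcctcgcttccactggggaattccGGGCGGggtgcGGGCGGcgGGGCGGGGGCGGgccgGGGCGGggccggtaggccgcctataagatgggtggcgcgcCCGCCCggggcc

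The 250 bases before GPC4 were rich in CpG, with 32 CpG and 76.0% GC against medians of 11 CpG and 58.0% GC over 35116 RefSeq promoters of the same length. They held 2 GC boxes but no TATAAA and neither CACCTG (the E-box bound by ZEB and SNAI factors) nor TGANTCA (an AP-1 motif). SDC4 had 26 CpG and 8 GC boxes, none of them overlapping. GPC6 differed from both, with 6 CpG, 37.6% GC, no GC box and a TATAAA that begins 155 bases before the start. The bases that follow this RefSeq start had no exact match in a GENCODE transcript of GPC6. The GENCODE span of GPC6 begins further downstream, at 93226842, so a match could not occur and its absence does not tell which start is used. Exact matches were found for GPC4, SDC4, GPC5 and SDC3, but not for GPC1, GPC2 or SDC1. A GC box was found in 42.6% of all promoters, TATAAA in 10.7%, CACCTG in 17.5% and TGANTCA in 6.57%, counting both strands. RefSeq promoters were matched for 8 of the 10 genes, CACCTG occurred before SDC1 (in 1 of its 2 records) and SDC3, and a TATAAA before GPC5 as well as GPC6. These matches describe letters only.

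In HCC827/GS cells the order of mean levels was SDC4, SDC1, GPC1, GPC6, SDC3, GPC2, GPC4 and GPC5, with SDC2 listed at 0. In HCC827/GR cells it was SDC4, GPC1, SDC1, SDC3, GPC4, GPC6, GPC2, SDC2 and GPC5. FPKM is a level per length, which allows genes to be set beside each other. SDC4 stood apart from all others in every library, whereas SDC3 and GPC6 in HCC827/GS, and GPC1 and SDC1 as well as SDC3 and GPC4 in HCC827/GR, overlapped with their neighbour in the order.

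**Figure D1:**
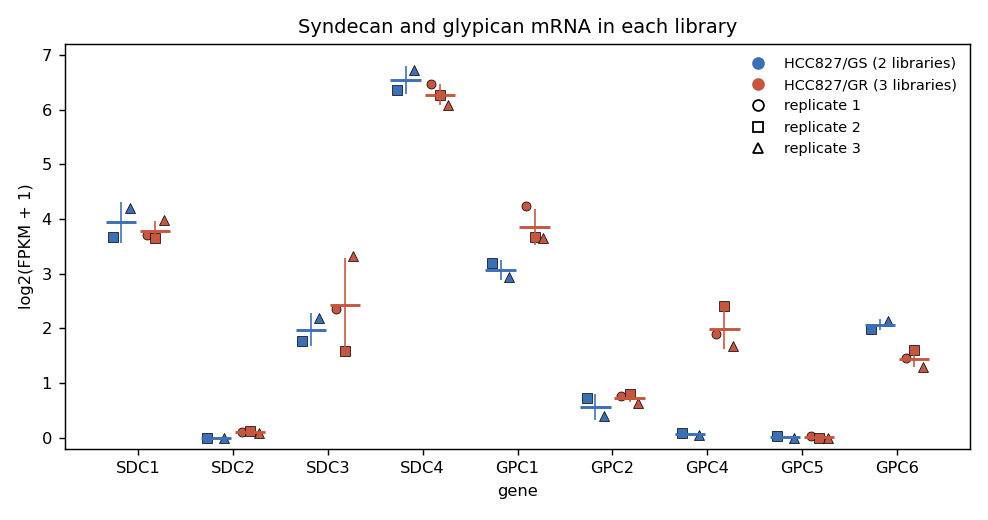
Level of the 9 listed members in each library as log2(FPKM + 1), with points for single libraries, horizontal bars for the group mean and vertical lines for the SD. The groups part in GPC1, GPC4 and GPC6 among the tested members, and GPC4 moves from 0.0464 FPKM on average in HCC827/GS to 3.07 FPKM in HCC827/GR.

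To compare resistant with parental cells, log2(FPKM + 1) was tested with limma over 16189 entries. Of the 7 tested members, 1 was called higher in HCC827/GR cells at an adjusted p under 0.05 and 0 were called lower, against a background of 5.26% of all entries called higher and 5.71% called lower. The member called higher was GPC4, and 3 of the 7 had an unadjusted p under 0.05, namely GPC4, GPC6 and GPC1, where 27.2% of all entries did. Values of the groups did not overlap for 3 of 7 members, where 46.3% of all tested entries did not overlap, so this share was near the background. The median log2 fold change was 0.17 over the 7 members and 0.00143 over all entries. Ballgown's model called 0 of the 7 and 15 of the 16189 entries.

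GPC4 (glypican 4, also called K-glypican) modulates Wnt and FGF signalling and lies on chromosome X from 133300103 to 133415490 (GRCh38). Its mRNA stood at 0.0615 and 0.0313 FPKM in the HCC827/GS libraries and at 2.72, 4.29 and 2.19 FPKM in the HCC827/GR libraries. Every resistant library was far above both parental libraries, and in such bulk samples more cells with the mRNA and more mRNA per cell cannot be told apart. The group values were 3.07 ± 1.09 FPKM (SD, n = 3) and 0.0464 ± 0.0213 FPKM (SD, n = 2), which limma fitted as a log2 fold change of 1.93 with a standard error of 0.24 (adjusted p = 0.0153). For a gene this low in one group the size of the change depends on the scale, and the ratio of the mean FPKM was 66.1, or 6.05 on the log2 scale. That ratio rests on an HCC827/GS mean of 0.0464 FPKM, so the size is not settled. The number of reads behind the HCC827/GS values is unknown.

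The GPC4 call depended on the libraries, although its direction did not. Without HCC827/GR replicate 1 the adjusted p was 0.0622, and without HCC827/GS replicate 2 or 3 it was 0.0974 or 0.0926, while the log2 fold change stayed between 1.72 and 2.08 with any library left out. Calls over all entries also fell with any library left out, which bears on the calls lost by other genes below. Without HCC827/GR replicate 1, 2 or 3 they were 3.02%, 4.8% or 5.94% of all entries, against 11% with all libraries. With a pseudocount of 0.1 FPKM in place of 1 the log2 fold change of GPC4 was 4.39. In the exact permutation test on FPKM (two-sided), p was 0.1, the smallest that 3 libraries against 2 allow. The entry holds 1 annotated transcript, and no other gene overlaps GPC4 in the annotation.

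Beside GPC4 on chromosome X, in tandem and on the same strand, lies GPC3, separated by 120254 bases, which was not analysed here. A similar tandem pair is formed by GPC5 and GPC6 on chromosome 13, with 353159 bases between them. GPC5 was hardly detected, at 0.0210 FPKM in HCC827/GS replicate 2 and 0.0294 FPKM in HCC827/GR replicate 1, and it was listed at 0 in the other 3 libraries. The members of the chromosome 13 pair thus differed in level in these cells.

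GPC6 (glypican 6), on chromosome 13 from 93226842 to 94407401, is a close relative of GPC4 in sequence. Its level was 2.98 and 3.39 FPKM in HCC827/GS and 1.73, 2.03 and 1.45 FPKM in HCC827/GR. All resistant libraries were below both parental libraries. The log2 fold change was -0.62 (standard error 0.13, 95% interval -0.96 to -0.27), with an adjusted p of 0.0529 from limma that just missed the threshold. Quantile normalization gave the lowest adjusted p among the alternatives for GPC6 (0.0487), and the highest was 0.358. HNRNPA1P29, a pseudogene that overlaps the span of GPC6 on the opposite strand, had 0.991 and 1.26 FPKM in HCC827/GS and 0.684, 0.524 and 0.362 FPKM in HCC827/GR. The antisense genes AL354811.1 and GPC6-AS1 also overlap GPC6 and reached at most 0.194 and 0.157 FPKM, both in HCC827/GR libraries. Whether these overlapping genes share exon bases with GPC6 was not tested, and no use of strand in counting is stated. Of the 7 transcripts behind the GPC6 entry, 6 were assembled by the authors' pipeline.

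GPC1 (glypican 1), the most abundant glypican in every library, is known for binding FGFs in carcinoma cells and lies on chromosome 2 from 240435671 to 240468078. It had 8.21 and 6.71 FPKM in HCC827/GS and 17.9, 11.8 and 11.5 FPKM in HCC827/GR. The resistant libraries were again all on one side, above both parental ones. Its log2 fold change was 0.78 (standard error 0.23, 95% interval 0.19 to 1.37), and the adjusted p of 0.107 from limma did not pass, with a range from 0.0877 to 0.328 over the alternatives. The host transcript of MIR149 is GPC1, and the microRNA had no entry of its own. A gene on the opposite strand, AC110619.1, reached at most 0.232 FPKM.

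GPC2 (glypican 2), mostly known from the developing nervous system, lies on chromosome 7 from 100169606 to 100177372. Its values were 0.667 and 0.312 FPKM in HCC827/GS and 0.704, 0.738 and 0.554 FPKM in HCC827/GR, and the groups overlapped. With a log2 fold change of 0.17 (95% interval -0.27 to 0.61, adjusted p = 0.582 from limma), no difference was detectable, and shifts of either sign lie within that interval.

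**Figure D2:**
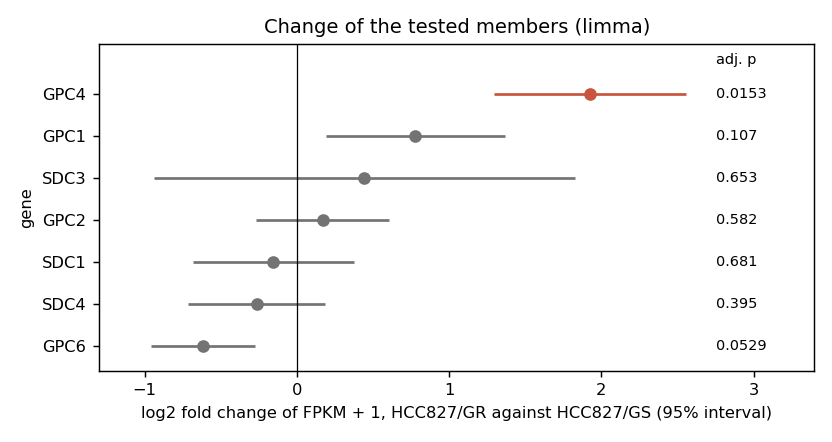
Log2 fold change of FPKM + 1 in HCC827/GR against HCC827/GS for the 7 tested members, with 95% intervals from limma and adjusted p at the right. GPC4 alone passed an adjusted p of 0.05 in this fit, and the intervals of GPC1 and GPC6 also leave out 0.

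Among syndecans, SDC4 is a focal adhesion co-receptor that works with integrins, and it lies on chromosome 20 from 45325288 to 45348424. SDC4 mRNA was at 81.2 and 104.3 FPKM in HCC827/GS and at 87.2, 76.2 and 67.2 FPKM in HCC827/GR. Its mean level exceeded that of 98.9% of the tested entries. The groups overlapped, and the log2 fold change of -0.26 had a 95% interval from -0.71 to 0.18 (adjusted p = 0.395 from limma).

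SDC1, the epithelial syndecan that is also known as CD138, lies on chromosome 2 from 20200797 to 20225433. It had 11.8 and 17.4 FPKM in HCC827/GS and 12.1, 11.6 and 14.9 FPKM in HCC827/GR. The spread between the parental libraries was wider than the gap between the groups. Its log2 fold change was -0.16 (95% interval -0.68 to 0.37, adjusted p = 0.681 from limma) and turned to 0.10 without HCC827/GS replicate 3.

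SDC3, on chromosome 1 from 30869467 to 30908761, had the largest standard error of the tested members (0.53 on the log2 scale). The parental libraries had 2.39 and 3.58 FPKM, and the resistant libraries had 4.12, 2.01 and 8.96 FPKM, so that the lowest and the highest value of all 5 were both from HCC827/GR. The log2 fold change of 0.44 carried a 95% interval from -0.94 to 1.83 (adjusted p = 0.653 from limma). It was -0.00435 without HCC827/GR replicate 3 and 0.86 without HCC827/GR replicate 2.

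SDC2, on chromosome 8, was listed at 0 in both HCC827/GS libraries while the resistant libraries held 0.0718, 0.0976 and 0.0645 FPKM. All resistant libraries were thus above the parental ones, at levels far under the 0.5 FPKM needed for the test. No fold change is given against 0, and the exact permutation test (two-sided) gave p = 0.1, the smallest possible. For GPC5 the exact permutation test gave p = 1.0.

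Summed over each family, syndecan mRNA was 95.4 and 125.2 FPKM in HCC827/GS and 103.5, 89.9 and 91.1 FPKM in HCC827/GR. The summed glypican mRNA was 11.9 and 10.4 FPKM in HCC827/GS and 23.1, 18.8 and 15.7 FPKM in HCC827/GR. Syndecan sums overlapped between the groups, and glypican sums did not. Glypicans thereby made up 11.1% and 7.70% of the listed membrane proteoglycan mRNA in HCC827/GS and between 14.7% and 18.2% in HCC827/GR. These sums are descriptions, with no test.

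Within the syndecans the shares of SDC4 overlapped, at 83.3% to 85.1% in HCC827/GS and 73.8% to 84.8% in HCC827/GR. Within the glypicans GPC1 took 64.2% to 68.8% and 62.5% to 77.5%. GPC6 was second in both HCC827/GS libraries with 24.9% and 32.5%, and had 7.52% to 10.8% in HCC827/GR. GPC4 made up 0.299% and 0.515% in HCC827/GS and 11.8% to 22.8% in HCC827/GR. The ratio of GPC4 to GPC6 was 0.0206 and 0.00922 in HCC827/GS and between 1.51 and 2.11 in HCC827/GR, so that the order of these 2 genes turned in each resistant library.

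**Figure D3:**
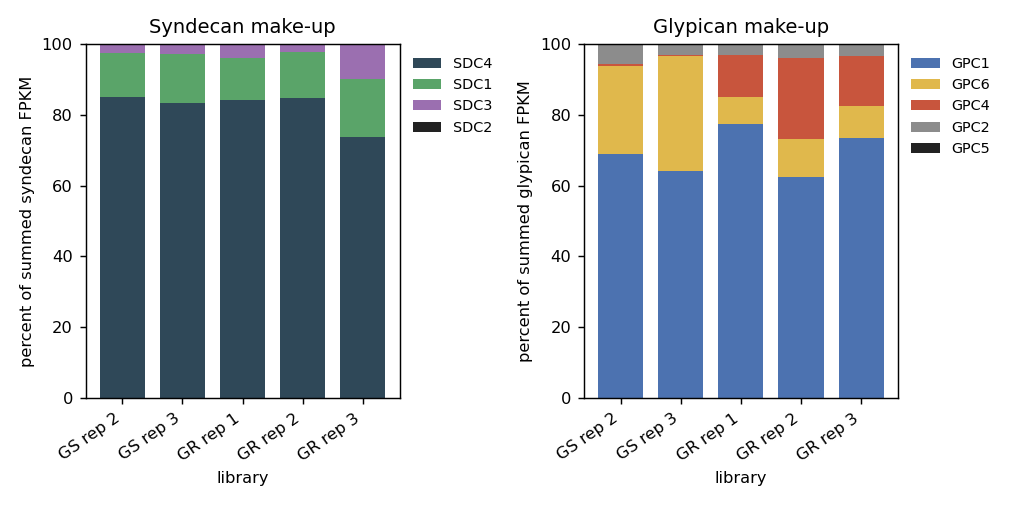
Share of each member in the summed FPKM of the listed syndecans (left) and glypicans (right), in percent, for each of the 5 libraries. SDC4 is the main syndecan throughout, and among glypicans GPC4 is at most 0.515% in HCC827/GS and at least 11.8% in HCC827/GR.

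To place GPC4 and GPC6 among other genes, the centred log2(FPKM + 1) profile over the 5 libraries was compared with those of 10411 protein-coding entries. Closest to GPC4 were DAB2 (root mean square difference 0.0938 on the log2 scale), ABCB1 (0.133) and PRLR (0.134). DAB2 encodes an endocytic adaptor, ABCB1 a drug efflux pump and PRLR the prolactin receptor. Closest to GPC6 were GLG1 (0.0501), NFKBIZ (0.0542) and ZBTB7B (0.0544). All of these profiles share the same 5 libraries.

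The chains on these core proteins are built by a set of enzymes, for which a list of 28 genes was used. Of these, 15 were tested, and EXT1 was called higher (1 of 15) while 0 were called lower by limma, which is near the 5.26% and 5.71% of all entries. At an unadjusted p under 0.05 there were 5 higher and 2 lower, against 13.4% and 13.8% of all entries, and Ballgown's model called 0. EXT1, a subunit of the polymerase that extends the chain, had 11.8 ± 1.01 FPKM (SD, n = 3) in HCC827/GR and 7.75 ± 0.187 FPKM (SD, n = 2) in HCC827/GS, and the log2 difference was 0.54 with a standard error of 0.10 (limma, adjusted p = 0.0413). This call was lost with any library left out (adjusted p from 0.0807 to 0.138). Its polymerase partner EXT2 did not pass the test, with 6.62 ± 0.245 and 9.06 ± 0.0974 FPKM, a log2 fold change of -0.40 and an adjusted p of 0.0509. The enzyme NDST1, which removes acetyl groups and adds sulfate to the growing chain, had a log2 fold change of 0.77 (adjusted p = 0.108).

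A second list held enzymes that edit the chains outside the cell or cut the core proteins free. Of its 11 genes 5 were tested, and 0 were called by limma or by Ballgown's model, with 1 at an unadjusted p under 0.05 (27.2% of all entries). That gene was MMP9, a matrix metalloproteinase, named after its values were seen, with 1.14 and 0.779 FPKM in HCC827/GS and 12.3, 1.93 and 15.9 FPKM in HCC827/GR (adjusted p = 0.179 from limma). The chain sulfatases SULF1 and SULF2 stayed at or below 0.121 FPKM in every library.

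Heparan sulfate is also carried by proteins outside these families, for which 10 genes were listed and 6 tested, with 2 called higher and 0 lower (5.26% and 5.71% of all entries). HSPG2, the basement membrane proteoglycan perlecan, rose by 1.29 on the log2 scale with a standard error of 0.14 (limma, adjusted p = 0.0117), from 6.79 ± 1.36 FPKM (SD, n = 2) to 17.9 ± 0.965 FPKM (SD, n = 3). COL18A1, which encodes the proteoglycan collagen XVIII, rose by 1.21 on the same scale (standard error 0.17, adjusted p = 0.0214), from 3.14 ± 0.304 to 8.64 ± 1.601 FPKM. HSPG2 lost its call without HCC827/GR replicate 1 (adjusted p = 0.0551), and COL18A1 kept its call without HCC827/GR replicate 3 (0.0307) but not without any other library (0.0599 to 0.109). The other 4 tested genes did not pass, and Ballgown's model called 0 of the 6.

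**Figure D4:**
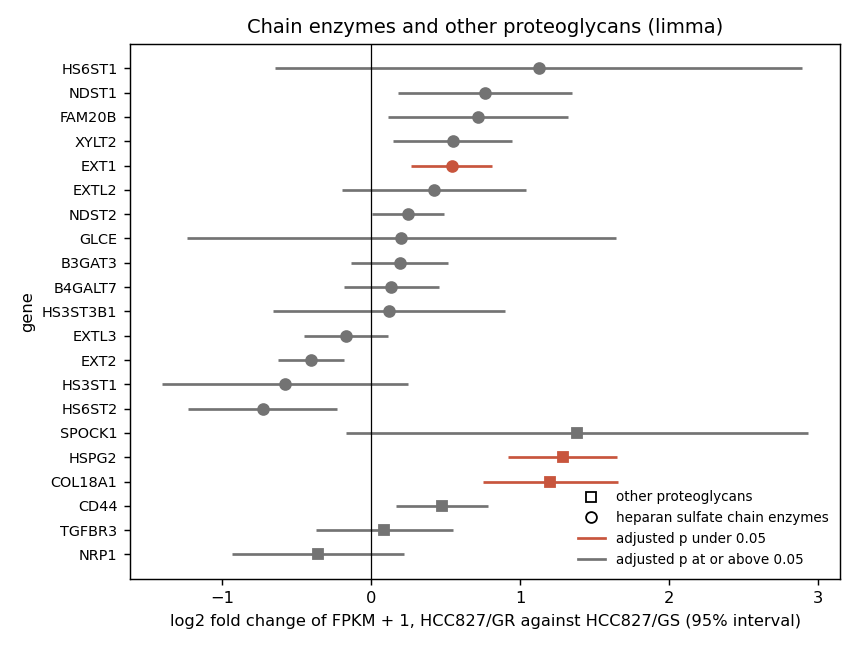
Log2 fold change of FPKM + 1 in HCC827/GR against HCC827/GS with 95% intervals from limma for the 15 tested chain enzymes (circles) and the 6 other tested proteoglycans (squares). Coloured lines mark an adjusted p under 0.05, which EXT1, HSPG2 and COL18A1 reached.

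Of 8 tested genes on a list of syndecan partners, not all of which bind the tail directly, 1 was called. It was lower, where 5.71% of all entries were called lower. With so few genes this count says nothing particular of the list. The gene was TIAM1, a Rac exchange factor that binds syndecans through its PDZ domain, with 3.401 and 4.37 FPKM in HCC827/GS and 1.57, 1.71 and 1.59 FPKM in HCC827/GR (log2 fold change -0.89, adjusted p = 0.0195 from limma). TIAM1 was named after its values were seen and was not followed with a library left out, and Ballgown's model called 0 of the 8. SDCBP, which encodes syntenin, the main PDZ partner of syndecans in exosome formation, had 56.0 ± 6.21 FPKM (SD, n = 2) in HCC827/GS and 53.7 ± 5.22 FPKM (SD, n = 3) in HCC827/GR, with a log2 fold change of -0.06 and an adjusted p of 0.828.

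Among 14 tested ligands and receptors that bind heparan sulfate, 4 were called higher and 2 lower, against 5.26% and 5.71% of all entries. THBS1, the matrix protein thrombospondin 1, rose by 3.27 (adjusted p = 0.00521 from limma), FGFR1, an FGF receptor that uses heparan sulfate as a cofactor, by 2.81 (adjusted p = 0.00661) and CXCL8, a chemokine, by 1.54 (adjusted p = 0.0370) on the log2 scale. FN1, which encodes fibronectin, fell by 1.59 (adjusted p = 0.00794). PTPRS, a receptor phosphatase that binds these chains, and SLIT2, a guidance ligand, completed the calls with log2 fold changes of 0.62 and -0.70. Their adjusted p from limma was 0.0245 and 0.0445. Both were named after their values were seen, and neither was followed with a library left out. CXCL8 lost its call with any library left out (adjusted p from 0.0595 to 0.167) and FN1 without HCC827/GS replicate 2 (0.0576), and Ballgown's model called 0 of the 14.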

How the data were processed

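RNA-sequencing data of HCC827/GR (replicates 1, 2 and 3) and HCC827/GS cells (replicates 2 and 3) were taken as the FPKM values that the authors deposited. As the paper's methods describe, Cutadapt trimming and FastQC checks came first, and reads were then mapped with Bowtie2 and TopHat2, and assembled and quantified with StringTie and Ballgown. The submitters' processing notes name hg18 as the build, and versions are not given in the sources used here. The paper describes a paired-end mRNA library and the labels a single-end small-RNA library. Positions given here are from GENCODE release 29 (GRCh38), since 135164 of 135299 Ensembl transcript identifiers in the table were found there. A further FPKM column (1) matched no sample and was left out. Depth per library is unknown, so no counting error could be given.

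HCC827/GR was compared with HCC827/GS in R 4.3.3 by limma 3.58.1 (eBayes with trend after lmFit, two-sided) on log2(FPKM + 1), keeping entries whose mean over the 5 libraries reached 0.5 FPKM, with Benjamini-Hochberg adjustment over all entries tested. Members under that mean were tested by an exact permutation test (two-sided). The text names all 10 members, and from each other list the called genes with a fold change of at least 2 (at most 6) together with EXT1, EXT2, NDST1, SULF1, SULF2 and SDCBP, and the 3 protein-coding entries most like the members that rose and fell most. The members and lists were chosen with earlier results of these data known. Genes whose transcripts the table joins into an entry of another name (HS2ST1, AGRN, SDCBP2, KRT7) were not analysed here. Alternatives were another pseudocount, other filters, scalings and models, the replicate number as a block, summed entries and each library left out. The main limma fit was tested on simulated data, and the other steps were not. Tables and plots were made in Python 3.11.15 (matplotlib 3.10.9, scipy 1.17.1, pandas 2.3.3).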

Additional observations from a re-analysis of the deposited data

How the results depend on the processing

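The count of members called higher (GPC4, 1 in the comparison as reported) became 0 with Ballgown's model, with the replicate number as a block, and without HCC827/GR replicate 1, HCC827/GS replicate 2 or HCC827/GS replicate 3 (0 to 1 over the libraries left out). No member was called lower except with quantile normalization, where 1 was (GPC6). EXT1, the 1 chain enzyme called higher, became 0 with Ballgown's model, the replicate block, quantile normalization, no trend in limma, no filter on low values and any library left out (0 each). The count of chain enzymes called lower became 1 (EXT2) with a mean of at least 1 FPKM and with quantile normalization.

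The replicate numbers 2 and 3 occur in both groups, but their deviations hardly went together (correlation 0.033 and 0.015 over 16189 entries). With the replicate block 0 of 16189 entries were called and Ballgown's model called 15, against 1775 in the comparison as reported. For GPC4 the block gave a log2 fold change of 1.97 with an adjusted p of 0.143, and Ballgown's model 2.03 with 0.264. Replicate number 1 occurs only in HCC827/GR, so the block fits that library by itself and the comparison rests on numbers 2 and 3. Its log2 fold changes thus equal those without HCC827/GR replicate 1 (1.97 for GPC4), and little is left to estimate the spread between libraries. With Ballgown's model the sign turned for SDC3 (-0.0187) and SDCBP (0.0525). With each library left out in turn, log2 fold changes ran from -0.415 to 0.104 for SDC1 (positive without HCC827/GS replicate 3), from -0.00435 to 0.858 for SDC3 (negative without HCC827/GR replicate 3), from -0.00346 to 0.342 for GPC2 (negative without HCC827/GS replicate 3) and from -0.17 to 0.0525 for SDCBP (positive without HCC827/GR replicate 3 or HCC827/GS replicate 2). The cause was not tested. SDC4, GPC1, GPC4, GPC6, EXT1, EXT2, NDST1, HSPG2, COL18A1, FGFR1, CXCL8, FN1 and THBS1 kept their direction in each alternative. Where a library was left out of HCC827/GS, the lone sample was assumed to vary like those of the other group. With any library left out, calls over all entries were also fewer than in the comparison as reported. Scaling moved the median of all entries to 0.0165 at most.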
